A study of Mus musculus with 12 samples.

Results

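A set of 10 genes of the inflammasome and pyroptosis pathway were followed in brain cells labelled as microglia. The cells came from mice with transplanted bone marrow, with and without an injection of lipopolysaccharide (LPS). They were chosen by symbol, without a cut on their values but with earlier results of these data known. They are Nlrp3, Aim2, Nlrc4, Nek7, Pycard, Casp1, Casp4, Gsdmd, Casp8 and Ripk3. All 10 were found among the 36491 genes of the deposited count table, and all 10 passed the filter on low counts. RNA was sequenced from cells that had been pulled from brain with magnetic beads against CD11b, a surface protein of microglia that other myeloid cells also carry. The mice were wild-type adult C57BL/6J males aged 6 months, and every animal had a bone marrow transplant (BMT) and then 2 weeks of PLX5622 in its food. PLX5622 blocks the CSF1 receptor and depletes microglia, and 6 weeks on standard chow followed before the final injection. The 4 groups of 3 libraries were unshielded mice (BMT without a head shield) given LPS, unshielded mice without LPS, shielded mice (BMT with a head shield) given LPS, and shielded mice without LPS. The LPS dose was 50 µg into the peritoneum, the other mice are described as given saline, and cells were sorted 6 hours later. PLX5622 and the transplant were thus shared by all groups, and the labels name no group without them and do not say which cells came from donor marrow.

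An inflammasome is a protein platform that forms when a sensor in the cytosol meets a danger or microbial signal. The sensor gathers the adaptor ASC, the product of Pycard, which brings in caspase-1, and caspase-1 then cuts the precursors of interleukin-1β and interleukin-18 and opens gasdermin D, whose fragment forms pores in the cell membrane. In the non-canonical route, caspase-11, the product of mouse Casp4, binds LPS in the cytosol and cuts gasdermin D itself. In macrophages a first signal, such as LPS acting on Toll-like receptor 4 through NF-κB, raises the transcript of Nlrp3, and a second signal assembles the protein. Transcript levels therefore describe the supply of parts and carry no reading of assembly, cleavage or cell death.

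The members whose transcripts changed most by LPS were Casp4, Ripk3 and Nlrp3, and the one that changed most by shielding was Nlrc4. Their upstream sequences are shown because LPS signalling through NF-κB is known to act on Nlrp3 and Casp4, and because Nlrc4 is the contrast. Each is the 250 bases before the annotated start in RefSeq, build GRCm38.p6, printed 5′ to 3′ on the gene's own strand, with capitals marking matches to the NF-κB pattern, GGG and CC with any 5 bases between them, on either strand. Casp4 lies at chr9:5308599-5308848 (plus strand), Nlrp3 at chr11:59541319-59541568 (plus strand, the more upstream of its 2 listed starts), Ripk3 at chr14:55788858-55789107 (minus strand) and Nlrc4 at chr17:74459109-74459358 (minus strand).
Casp4: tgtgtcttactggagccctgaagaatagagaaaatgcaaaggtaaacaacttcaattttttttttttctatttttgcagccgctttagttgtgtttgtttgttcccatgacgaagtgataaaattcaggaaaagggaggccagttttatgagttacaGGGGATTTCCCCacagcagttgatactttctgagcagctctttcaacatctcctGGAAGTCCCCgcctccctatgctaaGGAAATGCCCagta
Nlrp3: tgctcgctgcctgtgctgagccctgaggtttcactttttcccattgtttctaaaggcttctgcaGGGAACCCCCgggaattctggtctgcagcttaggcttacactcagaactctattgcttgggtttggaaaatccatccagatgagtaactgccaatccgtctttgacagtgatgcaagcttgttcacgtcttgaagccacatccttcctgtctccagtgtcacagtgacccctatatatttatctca
Ripk3: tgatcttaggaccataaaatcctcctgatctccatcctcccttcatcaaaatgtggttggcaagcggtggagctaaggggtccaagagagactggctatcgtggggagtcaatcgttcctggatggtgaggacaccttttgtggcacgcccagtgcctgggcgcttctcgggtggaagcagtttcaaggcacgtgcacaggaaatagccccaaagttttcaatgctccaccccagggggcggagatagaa
Nlrc4: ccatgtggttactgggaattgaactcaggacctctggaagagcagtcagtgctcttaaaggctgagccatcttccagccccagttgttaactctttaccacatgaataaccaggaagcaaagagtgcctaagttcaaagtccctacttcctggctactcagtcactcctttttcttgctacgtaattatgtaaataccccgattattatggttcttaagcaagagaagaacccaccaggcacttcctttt
The Casp4 window holds matches in 3 capitalised stretches and the Nlrp3 window in 1. No match was found in the printed windows of Ripk3 and Nlrc4 or in the window of the other Nlrp3 start. Of the members not printed, Nek7, whose transcript fell by LPS in both arms, held 3 matches. Casp1, which fell by LPS in unshielded mice, held 1, and Pycard, Aim2 and Casp8 held 0. Matches thus did not follow the direction of the LPS change. This pattern is loose, and 45.8% of the 32851 promoters of the same length hold at least 1 match. The letters GGGATTTCCC, searched on both strands after the Casp4 match had been seen, occur in 31 of those promoters, or 0.0944%, and lie inside the first capitalised stretch of Casp4. None of the members with a listed promoter held the interferon response core, GAAA and GAAA with any 2 bases between them (2.98% of all promoters), or the interferon-γ site, TTC and GAA with any 3 bases between them (7.02%). A match is a description of letters and shows no binding, and no match says only that those letters are not in this window.

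Library totals ran from 56776710 to 60495968 counts in unshielded LPS mice, 18090977 to 40792878 in unshielded mice without LPS, 29794946 to 40730784 in shielded LPS mice and 28770354 to 42931839 in shielded mice without LPS. The summed level of 10 microglia markers was 7129 to 7778 CPM (read counts scaled to library size) in unshielded LPS mice, 8007 to 10212 CPM in unshielded mice without LPS, 10622 to 11437 CPM in shielded LPS mice and 15859 to 18630 CPM in shielded mice without LPS, so the defining markers of the labelled cell type were present in every library. The summed level of 8 genes of marrow-derived macrophages was 80628 to 105805 CPM in unshielded LPS mice, 58401 to 88856 CPM in unshielded mice without LPS, 2717 to 4616 CPM in shielded LPS mice and 6818 to 23969 CPM in shielded mice without LPS, and Apoe made up most of it. The labels conflict for 2 shielded libraries, numbers 2 and 3, which are titled as without LPS but carry LPS in the treatment field. Their Casp4 levels were 26.3 and 20.8 CPM and their Ripk3 levels 5.78 and 4.48 CPM, against 26.0 and 4.76 CPM in library 1 of that title, whereas no library titled as LPS was below 67.8 CPM of Casp4 or 13.5 CPM of Ripk3. Casp4 and Ripk3 are among the 10 genes compared below, so these levels are not separate evidence of which label is right. The groups below follow the titles, and the fit without these 2 libraries is given wherever it ends a call. Because the samples are bulk, fewer cells of a type and less RNA per cell cannot be told apart in any level below.

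Levels were first compared between genes per kilobase of exon (RPKM, from the CPM values and exon lengths of another annotation release than the one counted, so approximate). Nlrp3, the sensor of potassium loss and membrane damage, had the highest mean level in both LPS groups, at 55.8 ± 12.4 RPKM in unshielded LPS mice and 91.2 ± 22.4 RPKM in shielded LPS mice (SD, n = 3 each). In unshielded LPS mice its range overlapped that of Gsdmd, the pore-forming gasdermin D, at 45.2 ± 3.28 RPKM (SD, n = 3), and in shielded LPS mice it did not. Without LPS the order was flatter at the top. In unshielded mice without LPS, Casp1, Gsdmd, Nlrp3 and Casp8 averaged 30.9, 29.5, 29.1 and 28.7 RPKM, and the ranges of neighbours in that order overlapped. In shielded mice without LPS, Casp8 and Gsdmd stood first at 40.1 and 36.1 RPKM with overlapping ranges, followed by Nlrp3, Casp1, Nek7 and Aim2 at 28.6, 28.3, 26.2 and 23.5 RPKM, again overlapping from 1 to the next. The low end held Ripk3 and Nlrc4 in every group. Nlrc4 averaged 3.40 RPKM in unshielded LPS mice, 4.94 RPKM in unshielded mice without LPS, 0.482 RPKM in shielded LPS mice and 1.04 RPKM in shielded mice without LPS.

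**Figure D1:**
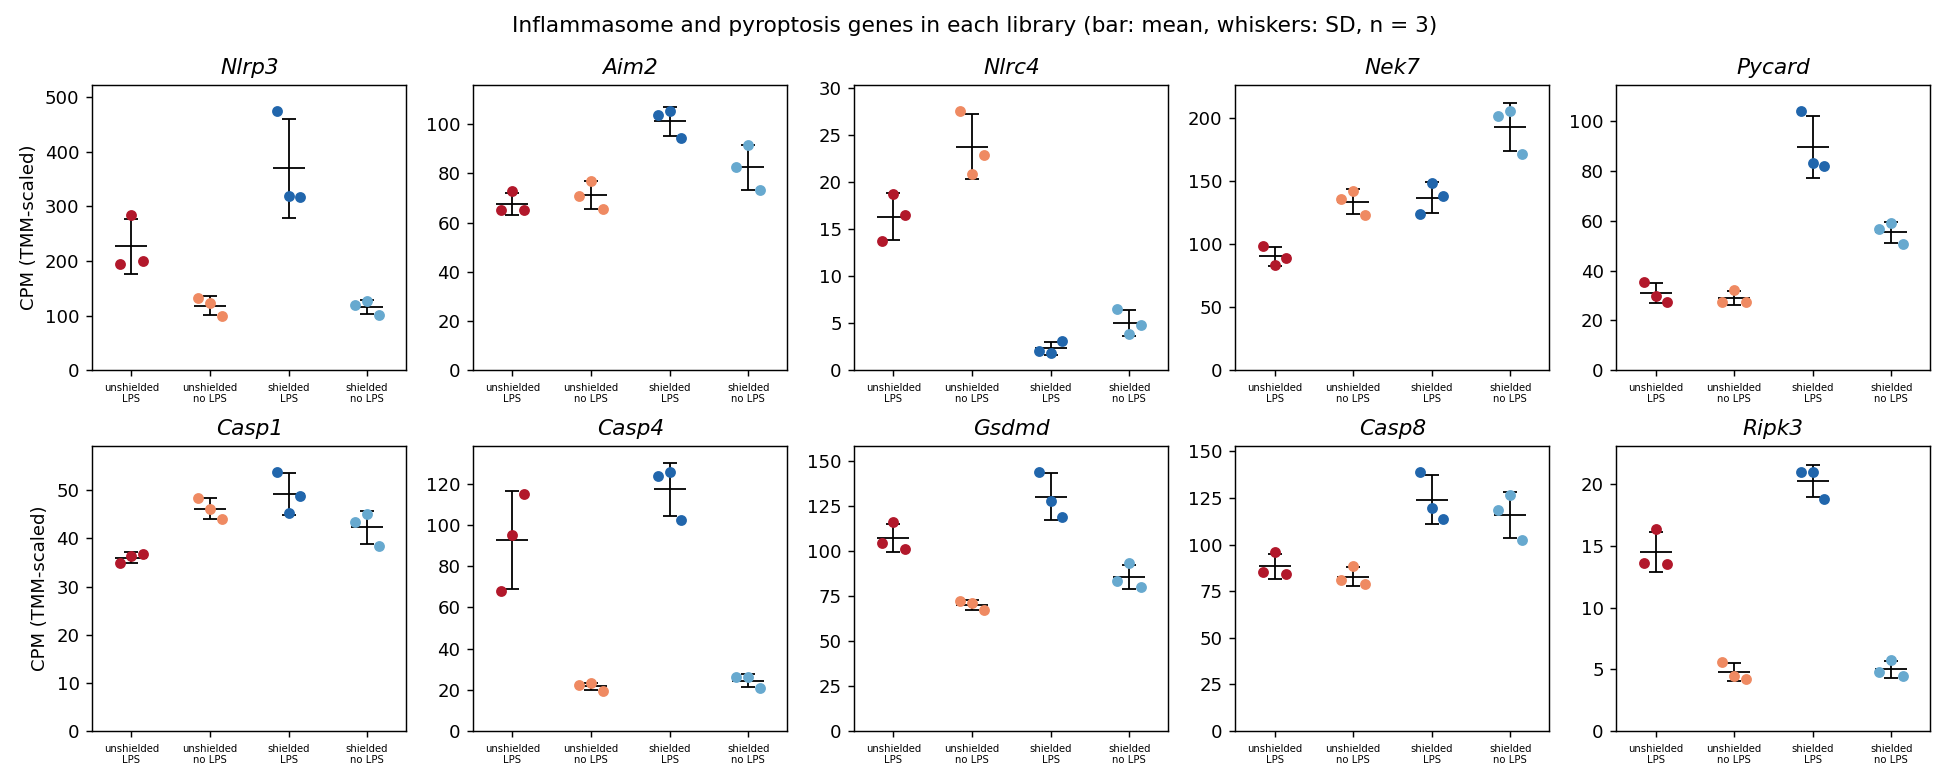
Level of each of the 10 genes in each library (CPM after TMM scaling, y axis from 0) for the 4 groups along the x axis; points are libraries, horizontal bars are means and whiskers are SD (n = 3). Casp4, Ripk3, Nlrp3 and Gsdmd sit higher in the LPS libraries of both arms, Nlrc4 is lowest in the shielded arm, and Pycard is highest in shielded LPS mice.

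The comparison of LPS with no LPS asks how cells in the brain respond to a bacterial product given outside it. In unshielded mice LPS went with higher Nlrp3, Casp4, Gsdmd and Ripk3 and lower Casp1 and Nek7, so that 4 of the 10 genes rose, 2 fell and 4 did not pass the test (edgeR, adjusted p under 0.05 over 18875 genes). Of all genes tested, 24.3% were called higher and 18.8% lower in that comparison. In shielded mice 7 of the 10 rose, 2 fell and only Casp8 did not pass, beside 32.4% of all genes called higher and 35.1% lower. The median log2 fold change of the 10 genes was 0.10 in unshielded mice and 0.45 in shielded mice, beside medians of -0.06 and -0.14 over all genes tested. With library totals in place of TMM scaling the medians over all genes were -0.36 in unshielded mice and -0.49 in shielded mice, so small changes depend on the scaling. With the 2 shielded libraries grouped by their treatment field instead, in 1 model over all libraries, 0 of the 10 genes were called in either arm. Over all genes that fit called 0 in shielded mice, and 74 higher and 43 lower in unshielded mice. The loss of calls was thus general and not particular to the 10 genes. In unshielded mice, where no library changed its group, the log2 fold changes stayed as large, at 2.07 for Casp4, 1.58 for Ripk3, 0.92 for Nlrp3, 0.59 for Gsdmd, -0.39 for Casp1 and -0.59 for Nek7. A fit of the unshielded libraries alone, which that regrouping does not touch, kept the 6 calls. In shielded mice the regrouped values were 1.64 for Casp4, 1.60 for Ripk3 and 1.19 for Nlrp3 (edgeR adjusted p = 0.792 each).

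Among the sensors, Nlrp3 responded to LPS in both arms. Its levels were 194, 284 and 201 CPM in unshielded LPS mice, against 132, 123 and 98.7 CPM in unshielded mice without LPS. In the shielded arm they were 475, 319 and 316 CPM in LPS mice, against 120, 126 and 102 CPM in mice without LPS. The groups did not overlap in either arm, and the first shielded LPS library was the highest of all. Nlrp3 rose 1.92-fold by LPS in unshielded mice (log2 fold change 0.94 ± 0.19, SE; edgeR adjusted p = 0.00175) and 3.19-fold in shielded mice (1.67 ± 0.19; edgeR adjusted p = 1.20e-05). The difference between the arms, -0.73 ± 0.27 on the log2 scale, did not pass the test (edgeR adjusted p = 0.0923). It did pass without shielded LPS library 3 (edgeR adjusted p = 0.0275) or without unshielded LPS library 2 (edgeR adjusted p = 0.0225), the highest Nlrp3 library of its group. It also passed with library totals (-0.68; edgeR adjusted p = 0.0388) and by DESeq2 (-0.75; adjusted p = 0.0456).

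Nek7 encodes a kinase that binds NLRP3 and is needed for its assembly, and it moved opposite to Nlrp3. Its levels were 98.7, 83.5 and 89.0 CPM in unshielded LPS mice, against 136, 143 and 123 CPM in unshielded mice without LPS. They were 124, 149 and 138 CPM in shielded LPS mice, against 202, 206 and 171 CPM in shielded mice without LPS. Every LPS library lay below every library without LPS of its arm. The fall was 1.48-fold in unshielded mice (log2 fold change -0.57 ± 0.10, SE; edgeR adjusted p = 0.000851) and 1.41-fold in shielded mice (-0.50 ± 0.10; edgeR adjusted p = 0.00124), and the difference between the arms was -0.07 (edgeR adjusted p = 0.762). Exons of Nek7 share 118 bases with an antisense gene, Gm28501, which had at most 0.121 CPM in any library.

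Aim2, the sensor of double-stranded DNA in the cytosol, had a small response that passed in the shielded arm and depended on the scaling. It stood at 65.0, 72.6 and 65.1 CPM in unshielded LPS mice, against 70.8, 77.0 and 65.5 CPM in unshielded mice without LPS, where the groups overlapped (log2 fold change -0.07 ± 0.10, SE; edgeR adjusted p = 0.562). With library totals that change was -0.37 and passed (edgeR adjusted p = 0.00129). It stood at 104, 105 and 94.3 CPM in shielded LPS mice, against 82.7, 91.4 and 73.1 CPM in shielded mice without LPS. The shielded groups did not overlap, and Aim2 rose there 1.23-fold by TMM scaling (log2 fold change 0.30 ± 0.10, SE; edgeR adjusted p = 0.0176) but had a change of -0.05 with library totals. That call also fell away when shielded LPS library 2 was left out (edgeR adjusted p = 0.0595), when shielded no-LPS library 3 was (0.0838) and when the 2 libraries of conflicting labels were (0.108), and with no filter on low counts (0.0864). The difference between the arms, -0.37 ± 0.14, did not pass (edgeR adjusted p = 0.0993), but did without shielded LPS library 3 (0.0231) or unshielded LPS library 2 (0.0458).

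Nlrc4, which with NAIP proteins senses bacterial flagellin and secretion systems, was lower with LPS, a change that passed the test in the shielded arm. Its levels were 13.8, 18.7 and 16.5 CPM in unshielded LPS mice, against 27.5, 20.8 and 22.9 CPM in unshielded mice without LPS. They were 2.02, 1.86 and 3.07 CPM in shielded LPS mice, from 67, 47 and 96 counts, against 6.47, 3.81 and 4.77 CPM in shielded mice without LPS, from 300, 118 and 220 counts. The groups did not overlap in either arm. In shielded mice Nlrc4 fell 2.16-fold (log2 fold change -1.11 ± 0.23, SE; edgeR adjusted p = 0.00115), but with the mean level of neuron and oligodendrocyte markers as a covariate the adjusted p was 0.0762. In unshielded mice the change of -0.54 ± 0.21 just missed the threshold (edgeR adjusted p = 0.0511), and 7 of the 12 fits that each left out 1 library passed it. Those 7 were without any of the 6 shielded libraries or without unshielded no-LPS library 2, and the lowest and highest adjusted p over the 12 fits were 0.0147 and 0.144. Nlrc4 was also called lower in unshielded mice with library totals (-0.84; edgeR adjusted p = 0.00924), with only the 2 groups compared (0.00789), with the replicate block (0.0216), without the 2 libraries of conflicting labels (0.0383) and by DESeq2 (0.0332). The difference between the arms was 0.57 (edgeR adjusted p = 0.245).

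Pycard, the adaptor, responded in the shielded arm. It was at 35.6, 30.0 and 27.6 CPM in unshielded LPS mice, against 27.4, 32.1 and 27.2 CPM in unshielded mice without LPS, with overlapping groups (log2 fold change 0.11 ± 0.12, SE; edgeR adjusted p = 0.496). It was at 104, 83.2 and 81.9 CPM in shielded LPS mice, against 56.6, 59.0 and 50.6 CPM in shielded mice without LPS. All shielded LPS libraries lay above all shielded libraries without LPS, and the rise was 1.62-fold (0.70 ± 0.12; edgeR adjusted p = 0.000302). The difference between the arms, -0.59 ± 0.17, passed narrowly (edgeR adjusted p = 0.0407). Its call was lost in 8 of the 12 fits that left out 1 library, namely without shielded LPS library 1, unshielded LPS library 3 or any of the 6 libraries without LPS. The adjusted p of the difference over the 12 fits ran from 0.00966 to 0.0960, and it was 0.241 without the 2 libraries of conflicting labels and 0.0900 with no filter on low counts. With library totals the difference was -0.53 (edgeR adjusted p = 0.0584), and with the neuron and oligodendrocyte level as a covariate it was -0.42 (0.111). Pycard exons share 485 bases with Gm45205 on the other strand, which had 0.0320 to 0.237 CPM.

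Casp1 encodes the caspase that the canonical inflammasomes activate, and its LPS response differed between the arms. Its levels were 34.8, 36.4 and 36.9 CPM in unshielded LPS mice, against 48.4, 46.1 and 44.1 CPM in unshielded mice without LPS. Every unshielded LPS library lay below every unshielded library without LPS, and Casp1 fell 1.28-fold (log2 fold change -0.36 ± 0.09, SE; edgeR adjusted p = 0.00488). In the shielded arm its levels were 53.9, 45.2 and 48.8 CPM in LPS mice, against 43.4, 45.1 and 38.5 CPM in mice without LPS, where the groups did not overlap but their closest libraries nearly touched. There Casp1 rose 1.17-fold by TMM scaling (0.22 ± 0.09; edgeR adjusted p = 0.0371) and had a change of -0.13 with library totals (edgeR adjusted p = 0.148). The shielded call fell away when shielded LPS library 1 was left out (edgeR adjusted p = 0.136), when shielded no-LPS library 1 (0.0540) or 3 (0.137) was, when the 2 libraries of conflicting labels were (0.260) and with a replicate block in the fit (0.0823). It also fell away with no filter on low counts (0.253) and with only the 2 groups compared in the fit (0.0678). The difference between the arms was -0.58 ± 0.12 (edgeR adjusted p = 0.00959), and it passed in each of the 12 fits that left out 1 library but not without the 2 libraries of conflicting labels (-0.55; edgeR adjusted p = 0.113) or with no filter on low counts (0.0767).

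Of all 10 genes, Casp4 had the largest log2 fold change by LPS in both arms. Casp4 stood at 67.8, 95.1 and 115 CPM in unshielded LPS mice, against 22.2, 23.2 and 19.6 CPM in unshielded mice without LPS. It stood at 124, 126 and 102 CPM in shielded LPS mice, against 26.0, 26.3 and 20.8 CPM in shielded mice without LPS. The lowest LPS library was above every library without LPS, and the 3 unshielded LPS libraries were the most spread. Casp4 rose 4.29-fold in unshielded mice (log2 fold change 2.10 ± 0.18, SE; edgeR adjusted p = 2.44e-06) and 4.81-fold in shielded mice (2.27 ± 0.18; edgeR adjusted p = 4.46e-07). Casp4's LPS effect differed between the arms by -0.17 ± 0.24 (edgeR adjusted p = 0.651).

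Gsdmd, the substrate of both caspases, rose in both arms. Its levels were 105, 116 and 101 CPM in unshielded LPS mice, against 72.5, 71.0 and 67.2 CPM in unshielded mice without LPS. They were 144, 128 and 119 CPM in shielded LPS mice, against 83.7, 93.2 and 80.2 CPM in shielded mice without LPS. No library without LPS reached an LPS library of its arm. The log2 fold changes were 0.61 ± 0.09 in unshielded mice (SE; edgeR adjusted p = 0.000212) and 0.61 ± 0.09 in shielded mice (edgeR adjusted p = 0.000118). With library totals they were 0.31 and 0.25 and still passed. The LPS effects of Gsdmd differed between the arms by 0.01 ± 0.13 (edgeR adjusted p = 0.976).

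Casp8 and Ripk3 link these platforms to apoptosis and necroptosis: caspase-8 starts apoptosis, can cut gasdermin D and restrains RIPK3, the kinase that activates the necroptosis effector MLKL. Ripk3 was at 13.6, 16.3 and 13.5 CPM in unshielded LPS mice, against 5.56, 4.48 and 4.18 CPM in unshielded mice without LPS. It was at 20.9, 21.0 and 18.8 CPM in shielded LPS mice, against 4.76, 5.78 and 4.48 CPM in shielded mice without LPS. The LPS libraries were all above the others. Ripk3 rose 3.04-fold in unshielded mice (log2 fold change 1.61 ± 0.15, SE; edgeR adjusted p = 3.71e-06) and 4.05-fold in shielded mice (2.02 ± 0.15; edgeR adjusted p = 2.07e-07). For Ripk3 the LPS effects differed between the arms by -0.41 ± 0.20 (edgeR adjusted p = 0.198).

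Casp8 was the member with no call by LPS in either arm. It had 85.2, 96.1 and 84.1 CPM in unshielded LPS mice, against 81.0, 88.8 and 78.9 CPM in unshielded mice without LPS, and 139, 120 and 114 CPM in shielded LPS mice, against 119, 127 and 103 CPM in shielded mice without LPS. The groups overlapped in both arms. The log2 fold changes were 0.09 ± 0.10 (SE; edgeR adjusted p = 0.482) in unshielded mice and 0.10 ± 0.10 (edgeR adjusted p = 0.408) in shielded mice, and with library totals they were -0.21 (edgeR adjusted p = 0.0315) and -0.25 (edgeR adjusted p = 0.00889).

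**Figure D2:**
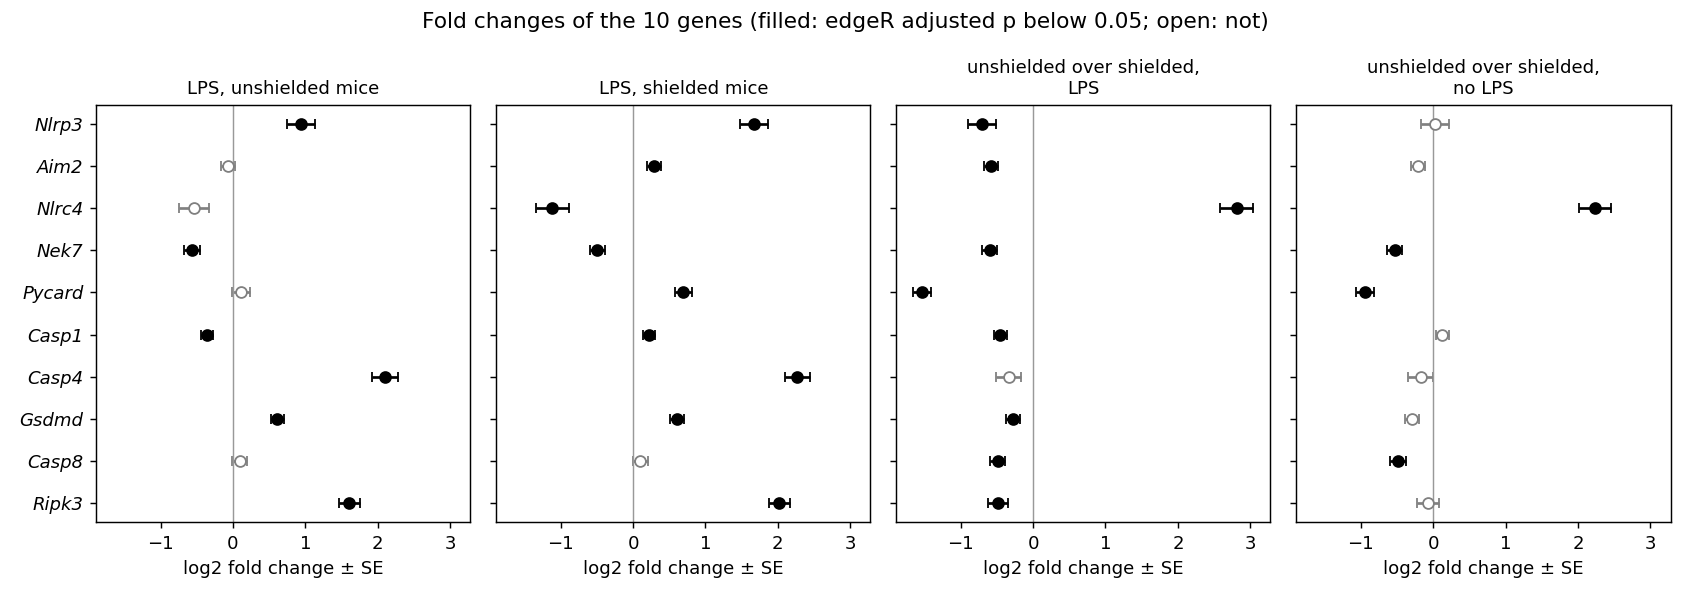
Log2 fold change of each of the 10 genes (axis in log2 units, error bars SE of the edgeR fit over 12 libraries, filled points past an adjusted p of 0.05) by LPS in each arm and by shielding without and after LPS, where a positive value means higher in LPS or in unshielded mice. Casp4, Ripk3, Nlrp3 and Gsdmd are above 0 by LPS in both arms, and Nlrc4 stands alone at 2.24 and 2.81 by shielding; the TMM-scaled LPS changes of Casp1 and Aim2 in shielded mice and of Casp8 in both arms change sign with library totals.

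The LPS libraries also differed from the others in markers of other cells. The counts stand beside 24.3% of all genes called higher and 18.8% lower by LPS in unshielded mice. In shielded mice 32.4% of all genes were called higher and 35.1% lower. For the difference of LPS effects these shares were 4.06% and 9.25%. In unshielded mice 6 of 11 neutrophil and 7 of 9 monocyte markers were called higher by LPS. Neutrophil sums there were 1040, 338 and 277 CPM in LPS mice against 53.3 to 160 CPM without LPS. In shielded mice 2 of 11 neutrophil and 4 of 9 monocyte markers were called higher, shares below and not far above that of all genes. Neutrophil sums there were 307 to 521 CPM in LPS mice against 168 to 392 CPM without LPS. For the difference of LPS effects, 0 of 11 neutrophil and 0 of 9 monocyte markers were called. The monocyte markers Ccr2 and Ace were called lower in both arms (log2 fold changes of -1.05 and -1.03 in unshielded and -1.57 and -0.78 in shielded mice), and the neutrophil marker Elane was called lower in shielded mice (-3.30). Of 10 microglia markers, 8 were called lower and 1 higher by LPS in unshielded mice, and 9 lower and 1 higher in shielded mice. Of 8 marrow macrophage markers, 1 was called lower and 3 higher in unshielded mice, and 6 lower and 2 higher in shielded mice. Nlrc4 was lower with LPS in both arms, although the change passed the test only in shielded mice. Markers of neurons and oligodendrocytes were lower with LPS in the shielded arm, 7 of 8 and 7 of 7 called. In the unshielded arm 0 of 8 and 1 of 7 were called lower. The median log2 fold changes were -1.62 and -1.31 in shielded mice and -0.73 and -0.59 in unshielded mice. For the difference of LPS effects, 0 of 8 and 0 of 7 were called. With the mean level of those 2 lists as a covariate, the LPS changes of Nlrp3 and Gsdmd in shielded mice were 1.04 and 0.32 and still passed, while Casp1 (edgeR adjusted p = 0.754) and Aim2 (0.688) did not. The part of neutrophils, monocytes and marrow-derived macrophages in the LPS changes was not tested.

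The comparison of unshielded with shielded mice sets cells from brains that were in the irradiated field against cells from brains that were covered. Without LPS, Nlrc4 was higher and Pycard, Nek7 and Casp8 were lower in unshielded mice, and the other 6 genes did not pass. Of all genes tested, 3.98% were called higher and 6.85% lower in unshielded mice. After LPS, Nlrc4 was again higher, 8 genes were lower and only Casp4 did not pass, beside 19.1% of all genes called higher and 25.6% lower. The median log2 fold change of the 10 genes was -0.19 without LPS and -0.49 after LPS, beside -0.003 and 0.07 over all genes. The 2 LPS comparisons and these 2 comparisons share their libraries, so they are not separate evidence of each other.

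Nlrc4 was the gene with the largest difference by shielding. By the levels given above, every unshielded library had more Nlrc4 than every shielded library, whether or not LPS had been given. Nlrc4 was 4.72-fold higher in unshielded mice without LPS (log2 fold change 2.24 ± 0.22, SE; edgeR adjusted p = 0.000191) and 7.01-fold higher after LPS (2.81 ± 0.23; edgeR adjusted p = 5.50e-06). Without the 2 libraries of conflicting labels these values were 1.87 (edgeR adjusted p = 0.0245) and 2.80 (1.37e-05).

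Pycard differed the other way. It was 1.92-fold lower in unshielded mice without LPS (log2 fold change -0.94 ± 0.12, SE; edgeR adjusted p = 0.000472) and 2.89-fold lower after LPS (-1.53 ± 0.12; edgeR adjusted p = 4.82e-06). No unshielded library reached the lowest shielded library. Without the 2 libraries of conflicting labels the difference without LPS was -0.98 (edgeR adjusted p = 0.0286).

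**Figure D3:**
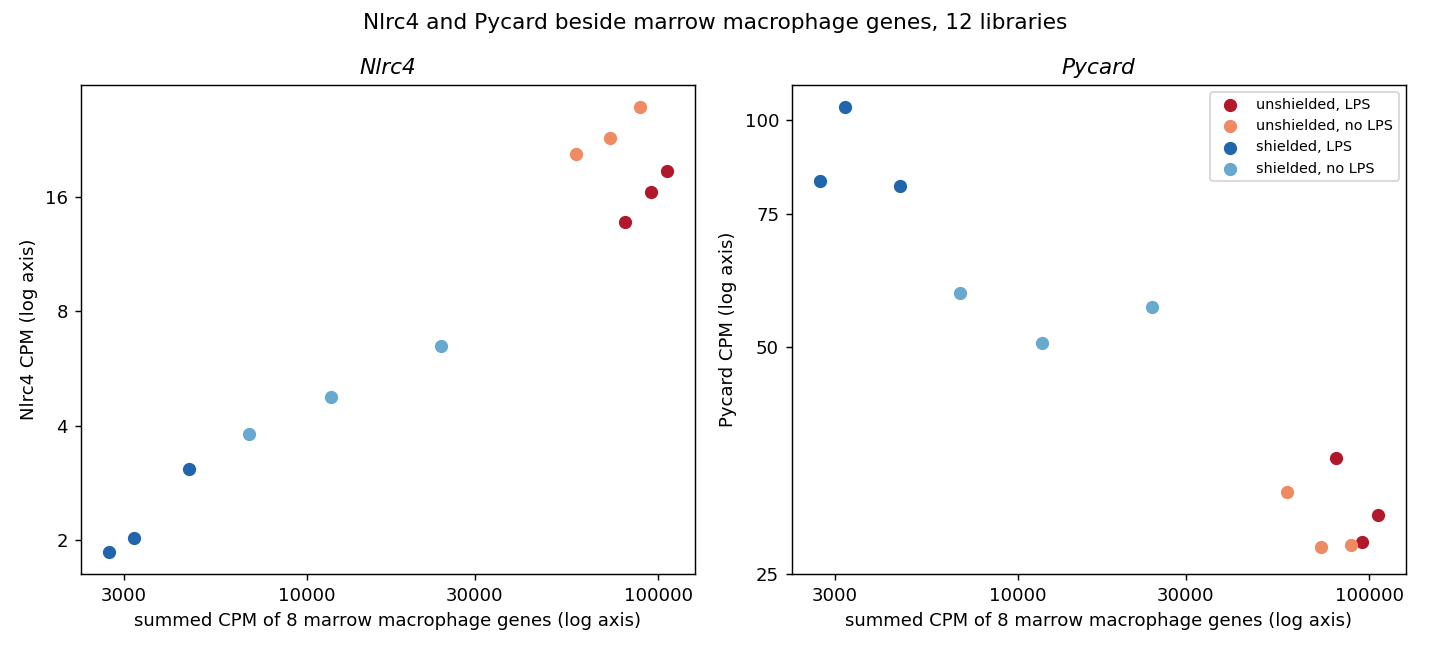
Level of Nlrc4 (left) and Pycard (right) in CPM against the summed CPM of 8 marrow macrophage genes, both axes logarithmic, 1 point per library coloured by group. The unshielded libraries lie at the right with 58401 to 105805 CPM of the marrow genes, where Nlrc4 is high and Pycard low, and the shielded libraries lie at the left with 2717 to 23969 CPM.

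By shielding, Nlrc4 moved with the markers of marrow-derived macrophages and Pycard moved against them. That list is known from published work that may include these samples. All 8 of those markers were called higher in unshielded mice both without and after LPS, and 9 of 10 microglia markers without LPS and 8 of 10 after LPS were called lower. Of all genes, 3.98% were called higher and 6.85% lower without LPS, and 19.1% and 25.6% after LPS. Within the shielded mice without LPS, the library with most of the marrow genes (23969 CPM) had most Nlrc4 and the one with least (6818 CPM) had least, and in the shielded LPS mice the highest library of both was number 3. In both unshielded groups the libraries had the same order by Nlrc4 as by the marrow genes. With LPS the sums were 80628, 105805 and 95376 CPM, beside 13.8, 18.7 and 16.5 CPM of Nlrc4. Without LPS they were 88856, 58401 and 73017 CPM, beside 27.5, 20.8 and 22.9 CPM. Pycard did not follow the order of the marrow genes within any group. By LPS in shielded mice, Nlrc4 and the sum of the marrow genes were both lower. The sum was 6818 to 23969 CPM without LPS and 2717 to 4616 CPM with it. There Nlrc4 was at 3.81 to 6.47 CPM without LPS and 1.86 to 3.07 CPM with it. By LPS in unshielded mice, Nlrc4 did not move with the marrow genes. Their sum was 58401 to 88856 CPM without LPS and 80628 to 105805 CPM with it. Nlrc4 was at 20.8 to 27.5 CPM without LPS and 13.8 to 18.7 CPM with it. The 12 points share groups and Apoe dominates the sum, so no correlation is given, and the part of marrow-derived cells in the 2 differences was not tested.

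Nek7 and Casp8 were lower in unshielded mice both without and after LPS, by the levels given above. The log2 fold change of Nek7 was -0.53 ± 0.10 (SE; edgeR adjusted p = 0.00528) without LPS and -0.60 ± 0.10 (edgeR adjusted p = 0.000583) after LPS. Casp8 had -0.48 ± 0.10 (SE; edgeR adjusted p = 0.00924) without LPS and -0.49 ± 0.10 (edgeR adjusted p = 0.00234) after LPS. Their groups did not overlap in either comparison. The Casp8 call without LPS was lost without shielded no-LPS library 2 (edgeR adjusted p = 0.0587) and without unshielded no-LPS library 1 (0.0603) or 3 (0.0682). Without the 2 libraries of conflicting labels neither gene passed in mice without LPS (edgeR adjusted p = 0.0684 for Nek7 and 0.112 for Casp8).

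Nlrp3, Casp1, Gsdmd, Aim2 and Ripk3 were called by shielding after LPS and not without it. The comparison of the LPS effects, which tests that difference, passed for Casp1 and not for the other 4. After LPS, Aim2 was lower in unshielded mice (log2 fold change -0.58 ± 0.10, SE; edgeR adjusted p = 0.000458) and Casp1 was 1.37-fold lower (-0.45 ± 0.09; edgeR adjusted p = 0.00108). Nlrp3 was 1.63-fold lower (-0.71 ± 0.19; edgeR adjusted p = 0.00967), with 1 unshielded library at 284 CPM against the lowest shielded library at 316 CPM. With the neuron and oligodendrocyte level as a covariate the Nlrp3 difference was -0.32 (edgeR adjusted p = 0.0882). Ripk3 was lower by -0.48 ± 0.14 (SE; edgeR adjusted p = 0.0136) and Gsdmd by -0.28 ± 0.09 (edgeR adjusted p = 0.0283). Ripk3 lost its call without unshielded LPS library 3 (edgeR adjusted p = 0.0542) and with that covariate (-0.32; 0.104). Gsdmd lost it without shielded LPS library 1 (edgeR adjusted p = 0.0827) or unshielded LPS library 1 (0.0591) or 3 (0.0963), with the covariate (-0.10; 0.369), with no filter on low counts (0.154), with only the 2 groups compared (0.0881) and with the replicate block (0.107).

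Casp4 had -0.34 ± 0.17 after LPS (SE; edgeR adjusted p = 0.113) and passed without shielded LPS library 3 (edgeR adjusted p = 0.0300) or without unshielded LPS library 3 (0.0221), the highest of its group. Without LPS the log2 fold changes of Nlrp3, Casp1, Casp4, Gsdmd, Aim2 and Ripk3 lay between -0.29 and 0.13, and the adjusted p of Gsdmd was 0.0753. Gsdmd was called lower there with library totals (edgeR adjusted p = 0.0107), only the 2 groups compared (0.0438), the replicate block (0.0255) or the covariate (0.00605). Across the 10 genes, 2 passed the test of the difference between the LPS effects, Casp1 and Pycard, both with a lower value in the unshielded arm, beside 9.25% of all genes called lower and 4.06% called higher. None was called higher by edgeR, with 0 at an unadjusted p under 0.05 and 0 by DESeq2. The median difference of the 10 genes was -0.27, beside 0.08 over all genes.

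The rest of the pathway was read from 5 lists of 54 genes, of which 52 could be tested. Their counts by LPS stand beside the 24.3% of all genes called higher and 18.8% called lower in unshielded mice, and the 32.4% called higher and 35.1% called lower in shielded mice. Among 9 tested sensors other than the members, 3 rose by LPS in each arm, a share near that of all genes: Mefv, which encodes pyrin, with 3.54 ± 0.32 in unshielded and 3.22 ± 0.32 in shielded mice (log2, SE), Naip2 with 1.12 and 1.54, and Ifi204 with 2.35 and 2.81. Mefv rose from low levels, at 0.684 to 1.30 CPM over the libraries without LPS of both arms. NAIP2 senses the rod protein of bacterial secretion systems and joins NLRC4, and in shielded mice Naip2 rose and Nlrc4 fell by LPS. By shielding, Naip2 was lower where Nlrc4 was higher, with -0.50 ± 0.10 (SE; edgeR adjusted p = 0.00528) without LPS, or 0.118 without the 2 libraries of conflicting labels, and -0.92 ± 0.10 (edgeR adjusted p = 2.13e-05) after LPS. In unshielded mice 0 of these sensors fell by edgeR, with 1 at an unadjusted p under 0.05 and 0 by DESeq2. In shielded mice Nlrp1b fell (-0.48 ± 0.16; edgeR adjusted p = 0.0167), a call lost without shielded LPS library 3 (0.0751), shielded no-LPS library 2 (0.0671) or the 2 libraries of conflicting labels (0.165), while 2 sensors fell with the replicate block. Reads of Naip and Ifi200 genes can match more than 1 copy, so these values are uncertain.

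Among 8 substrates and outputs, 6 rose by LPS in each arm: Il1b, Il18, Il1a, Il1rn, Il18bp and Ninj1. Il1b, whose product caspase-1 matures, stood at 264, 409 and 278 CPM in unshielded LPS mice, against 223, 180 and 137 CPM in unshielded mice without LPS. It stood at 591, 283 and 407 CPM in shielded LPS mice, against 135, 143 and 107 CPM in shielded mice without LPS. The groups did not overlap, and the spread was widest among shielded LPS libraries. Il1b rose by 0.82 ± 0.27 on the log2 scale in unshielded mice (SE; edgeR adjusted p = 0.0303) and by 1.73 ± 0.28 in shielded mice (edgeR adjusted p = 0.000235). The unshielded call was lost without unshielded LPS library 2 (edgeR adjusted p = 0.119) and without unshielded no-LPS library 2 (0.0829) or 3 (0.126). Il18 had 0.35 (edgeR adjusted p = 0.0212) in unshielded mice and 0.71 in shielded mice. Its unshielded call was lost without unshielded LPS library 1 or 3 or unshielded no-LPS library 1 or 2, with an adjusted p of at most 0.129. Il1a had 0.76 (edgeR adjusted p = 0.0339) in unshielded mice and 1.43 in shielded mice. Its unshielded call was lost without unshielded LPS library 2, unshielded no-LPS library 2 or 3, shielded LPS library 2 or shielded no-LPS library 1, with an adjusted p of at most 0.142. Of the 6 genes that rose in unshielded mice, 3 were left without unshielded no-LPS library 2, and likewise 3 with library totals.

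Il1rn, the antagonist of the interleukin-1 receptor, had the largest change of the list at 4.95 ± 0.41 in unshielded and 6.37 ± 0.44 in shielded mice (log2, SE). Ninj1, which ruptures the membrane after gasdermin pores have formed, had 1.21 in each arm. Gsdme, another gasdermin, had -0.03 in unshielded mice (edgeR adjusted p = 0.893) and fell in shielded mice (-0.46 ± 0.14; edgeR adjusted p = 0.0115), a call lost without shielded LPS library 2 (0.0524) and without the 2 libraries of conflicting labels (0.0914). In unshielded compared with shielded mice after LPS, Il1a (-1.62 ± 0.26, SE) and Il18 (-0.53) were lower and Ninj1 (0.64) higher.

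Among 19 activators and brakes, 13 rose and 2 fell by LPS in unshielded mice and 14 rose and 2 fell in shielded mice. The ones with the smallest p were Irgm1 (log2 fold change 1.93 in unshielded and 1.83 in shielded mice) and Irgb10, listed as Gm12250 (1.91 and 2.18), interferon-induced GTPases of which Irgb10 is known to act on bacterial membranes. Those that fell were P2rx7, the ATP-gated channel whose opening starts the loss of potassium that NLRP3 senses (-0.58 and -0.76), and Nlrc3 (-0.69 and -1.69). The Nlrc3 call in unshielded mice was lost without unshielded LPS library 1 or 3 or unshielded no-LPS library 1 or 3, with an adjusted p of at most 0.106. Nlrc3 also differed by shielding in the direction of Nlrc4, at 2.01 ± 0.24 (SE; edgeR adjusted p = 0.000324) without LPS and 3.02 ± 0.27 (edgeR adjusted p = 7.94e-06) after LPS, but from low levels of 0.554 to 0.704 CPM in shielded LPS mice.

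Among 12 partners of Casp8 and Ripk3, 8 rose by LPS in unshielded mice and 11 in shielded mice (7 with the neuron and oligodendrocyte level as a covariate), and 0 fell in either by edgeR, with 0 at an unadjusted p under 0.05 and 0 by DESeq2. Mlkl, the necroptosis effector downstream of Ripk3, had 2.29 ± 0.18 in unshielded and 2.33 ± 0.18 in shielded mice (log2, SE). It stood at 10.5, 12.5 and 14.0 CPM in unshielded LPS mice, against 2.67, 2.26 and 2.59 CPM in unshielded mice without LPS. It stood at 6.99, 6.92 and 8.96 CPM in shielded LPS mice, against 1.68, 1.58 and 1.28 CPM in shielded mice without LPS. The LPS libraries were all above the others, and unshielded LPS mice were the highest. Mlkl was higher in unshielded than in shielded mice after LPS (0.69 ± 0.17; edgeR adjusted p = 0.00506), where Ripk3 was lower. Zbp1, a sensor of Z-form nucleic acid that recruits RIPK3, had 3.06 and 3.27 by LPS. Fas, the death receptor upstream of caspase-8, had 2.31 in unshielded and 3.46 in shielded mice. Its difference between arms was -1.15 ± 0.30 (SE; edgeR adjusted p = 0.0269), the only call of the difference in this list. It was lost without shielded LPS library 1, shielded no-LPS library 1 or 3 or unshielded no-LPS library 1 or 3, at an adjusted p of up to 0.0609, and without the 2 libraries of conflicting labels (0.160), whereas 4 partners passed without shielded LPS library 3 and 2 without unshielded LPS library 2.

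Of the other caspases 4 were counted as a list, and 2 of them, Casp2 and Casp6, were called. Both rose by LPS in unshielded mice and fell in shielded mice, while Casp9 and Casp12 passed in neither arm, although 1 of the list was called lower in unshielded mice with library totals. Casp2, a caspase linked to responses to cell stress, was at 31.6, 34.0 and 32.0 CPM in unshielded LPS mice, against 25.5, 23.3 and 25.8 CPM in unshielded mice without LPS. It averaged 17.0 ± 0.875 CPM in shielded LPS mice, against 21.5 ± 1.28 CPM in shielded mice without LPS (SD, n = 3 each). The groups did not overlap in either arm, and their order was opposite in the arms. Its log2 fold changes were 0.39 ± 0.08 in unshielded mice (SE; edgeR adjusted p = 0.00184) and -0.34 ± 0.08 in shielded mice (edgeR adjusted p = 0.00295), and the shielded call was lost without the 2 libraries of conflicting labels (0.0696). Casp6, a caspase of apoptosis, was at 19.3, 23.5 and 24.4 CPM in unshielded LPS mice, against 19.3, 17.7 and 16.3 CPM in unshielded mice without LPS. It was at 13.1, 14.4 and 12.8 CPM in shielded LPS mice, against 22.0, 20.9 and 18.7 CPM in shielded mice without LPS. For Casp6 only the shielded groups were apart. Its log2 fold changes were 0.33 ± 0.11 in unshielded mice (SE; edgeR adjusted p = 0.0276) and -0.61 ± 0.11 in shielded mice (edgeR adjusted p = 0.00043). The unshielded call was lost without shielded no-LPS library 1, unshielded LPS library 2 or 3 or unshielded no-LPS library 2 or 3, with an adjusted p of at most 0.161, and with the replicate block (0.0591) or the neuron and oligodendrocyte level as a covariate (0.0649). With library totals the unshielded changes were 0.09 for Casp2 and 0.04 for Casp6, and neither passed. The signed LPS effects were higher in unshielded mice for Casp6 (difference 0.95 ± 0.16, SE; edgeR adjusted p = 0.00318) and Casp2 (0.72 ± 0.11; 0.00283), opposite in sign to the differences of Casp1 and Pycard. Without the 2 libraries of conflicting labels that of Casp6 passed (0.0469) and that of Casp2 did not (0.0607).

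Between unshielded and shielded mice fewer genes of the 5 lists passed. After LPS 7 of the 52 were higher and 13 lower in unshielded mice, beside 19.1% of all genes higher and 25.6% lower, so the lower share is near that of all genes and the higher share is below it. With the neuron and oligodendrocyte level as a covariate 6 were lower, where 3543 of all genes were called lower, against 4827 in the main fit. Without LPS 7 were higher and 4 lower, beside 3.98% and 6.85% of all genes, or 1 and 1 without the 2 libraries of conflicting labels. Leaving those 2 out also lowered the calls over all genes, to 109 higher and 183 lower from 751 and 1292. The 7 became 2 to 4 without shielded no-LPS library 2 or 3 or unshielded no-LPS library 1 or 3, and the 4 became 2 without shielded LPS library 2, shielded no-LPS library 1 or 2 or any unshielded library without LPS. Of the 4, Kcnk6, a potassium channel, had the largest fall (-1.02 ± 0.14, SE; edgeR adjusted p = 0.000505) and had -0.87 ± 0.14 after LPS (edgeR adjusted p = 0.000255).

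**Figure D4:**
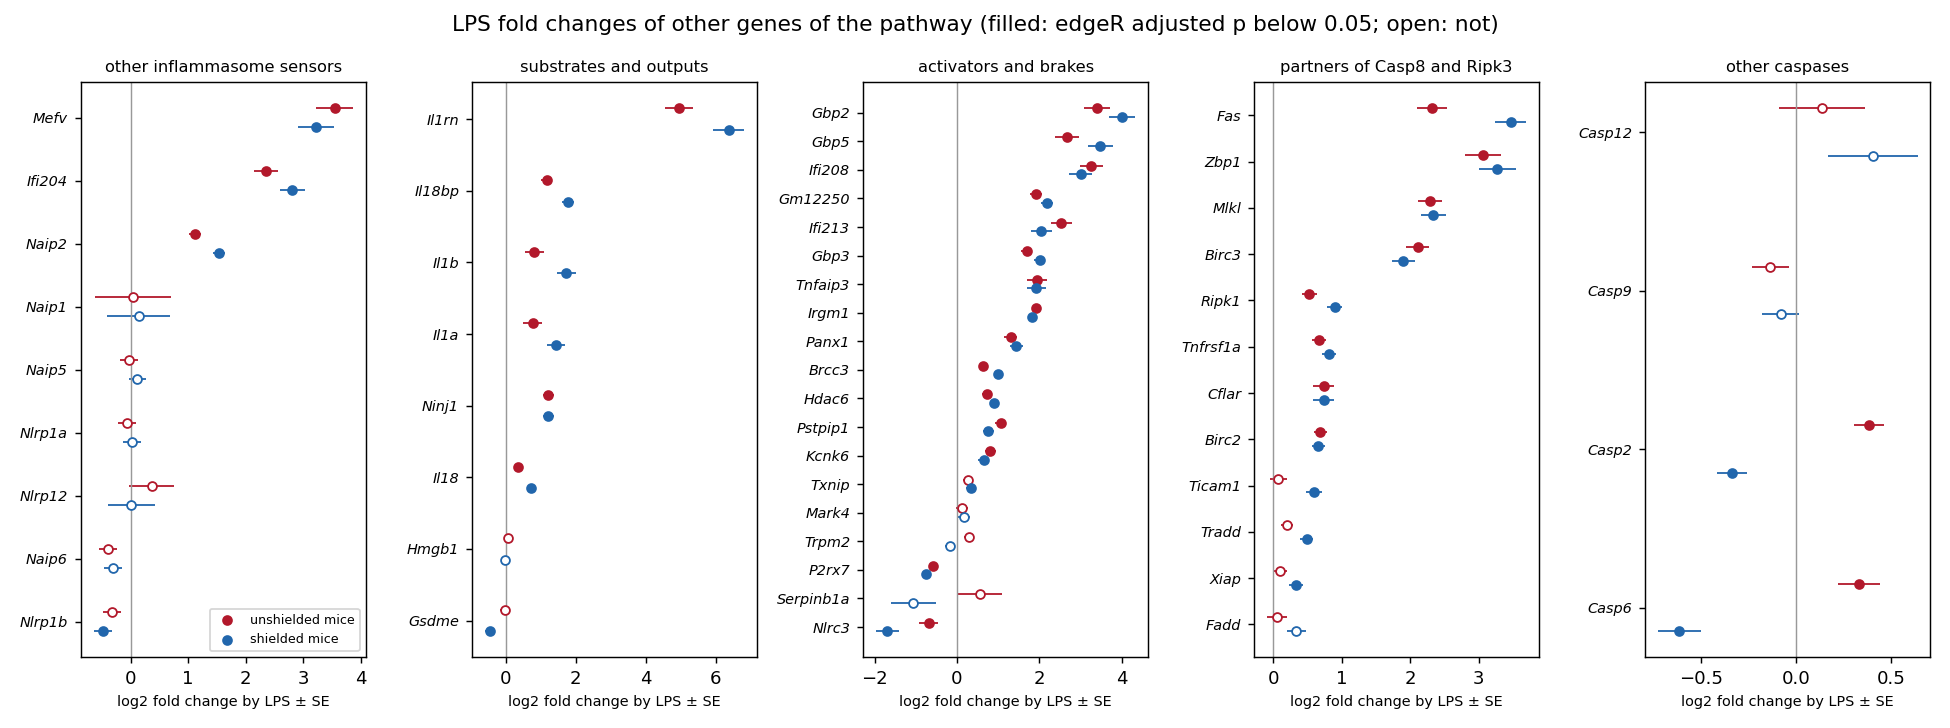
Log2 fold change by LPS (x axis, log2 units, ± SE) for the tested genes of the 5 lists, 1 panel per list, in unshielded and shielded mice, with filled points past an edgeR adjusted p of 0.05. Partners of Casp8 and Ripk3 and the activators and brakes lie mostly above 0 in both arms, up to 3.46 for Fas among the partners, and the other caspases hold 2 called genes, above 0 in unshielded and below 0 in shielded mice.

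The genes whose profile over the 12 libraries was nearest to a member, by distance between centred log2 CPM values, were found for 4 members among tested genes of mean log2 CPM 3 or more. For Nlrp3, which ranged over 2.27 log2 units, they were Odc1, Hspa8 and Kars at distances of 0.396, 0.442 and 0.467. For Casp4 they were Smim3, Ptpn1 and Ifih1 at 0.446, 0.457 and 0.476, over a range of 2.68. For Aim2 they were Nckap1l, Tmf1 and Gabpa at 0.167, 0.179 and 0.185, over a range of only 0.697. For Nlrc4 they were Adgb, Itga4 and Iqgap2 at the larger distances of 0.750, 0.860 and 0.921, over a range of 3.85. The distance is not scaled to the range of a gene. Correlations with the 3 genes were 0.987, 0.992 and 0.981 for Nlrc4 and 0.985, 0.981 and 0.976 for Aim2. A small distance describes likeness over these libraries and groups.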

How the data were processed

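RNA-seq was done on 12 libraries of CD11b-enriched brain cells. The RNA was linearly amplified, per the labels' protocols. FastQC, STAR, HTSeq and build mm9 are named in the submitters' processing notes; versions, annotation release and strand setting of the counting are not named in those notes. The deposited values are counts of reads for each gene, per the file headers.

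The test was edgeR 4.0.16 under R 4.3.3 (robust quasi-likelihood, TMM scaling, two-sided, Benjamini-Hochberg adjustment over all genes tested, threshold 0.05) in 1 model over 12 libraries with a mean per group. The filterByExpr function (minimum count 10, total 15) left 18875 genes. Standard errors were derived from the size of the log2 fold change and the F statistic. CPM values are library-scaled counts (TMM); their log2 used a prior count of 2. RPKM divides CPM by the union of GENCODE M21 exons on GRCm38, so no coordinates of the files are given. Promoters come from RefSeq, GRCm38.p6, and 9 of the 10 genes had an entry. Symbols came from the reference table; 254 identifiers had none and 12 shared one.

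Groups follow the titles. The labels do not tie libraries to animals; p-values then reflect only the spread among these samples, possibly technical. Libraries of a group were not copies of each other (chi-square per degree of freedom at least 11.2). Titles give the replicate numbers. In the shielded arm, deviations from the group means of same-numbered LPS and no-LPS libraries had correlations across genes of 0.112, 0.194 and 0.547. Those of differently numbered libraries ran from -0.483 to 0.399, the highest between LPS library 1 and no-LPS library 2. The labels do not say what a number marks, so whether the numbers pair libraries is not known.

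The 10 genes and the lists were chosen with earlier results of these data known. All 10 are named throughout; of each list, Il1b, Il18, Il1a, Gsdme, Mlkl, Zbp1 and the 2 called genes of smallest p per direction may be named, and genes named to complete a count of 5 or fewer were chosen after their values were seen. Some were left out for length. A few genes of the lists as first drawn up are not reported here. Alternatives were library totals, DESeq2 1.42.0, no filter, leaving out each library, leaving out or regrouping the 2 libraries of conflicting labels, only the groups compared, a replicate block, and a covariate for neuron and oligodendrocyte markers. The tests were tried on simulated counts.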

Additional observations from a re-analysis of the deposited data

Results flagged for a closer look

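The LPS effect on Casp1 differed between the arms by the test of the difference itself: the log2 fold change in unshielded mice minus that in shielded mice was -0.58 (edgeR adjusted p = 0.00959). All 3 unshielded LPS libraries lay below the unshielded libraries without LPS, and all 3 shielded LPS libraries above the shielded libraries without LPS. The LPS effect on Pycard differed in the same way, by -0.59 (edgeR adjusted p = 0.0407), with overlapping groups in unshielded mice. The sign of the shielded Casp1 change depends on the scaling, and neither difference passed without the 2 libraries of conflicting labels.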

How the results depend on the processing

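Over 19 alternatives other than regrouping by the treatment field, the calls of Nlrp3, Casp4, Gsdmd, Nek7 and Ripk3 by LPS held in both arms, as did those of Pycard in shielded and Casp1 in unshielded mice and those of Nlrc4 and Pycard by shielding. Grouping the 2 conflicting libraries by that field left 0 of the 10 genes higher and 0 lower by LPS in either arm, 0 and 0 by shielding without LPS, 1 higher and 2 lower after LPS, and 0 lower for the difference of LPS effects. Over all genes that fit called 74 higher and 43 lower by LPS in unshielded mice. By shielding after LPS it called 558 higher and 906 lower, and in the other comparisons 0 and 0. The unshielded log2 fold changes by LPS, of libraries that kept their groups, stayed as large there (2.07 for Casp4, 1.58 for Ripk3, -0.59 for Nek7). Leaving the 2 libraries out gave 1 lower by shielding without LPS and 0 lower for the difference, where no filter on low counts also gave 0. Over all genes, leaving them out gave 183 lower by shielding without LPS and 65 for the difference. The main fit gave 1292 and 1745. With library totals 5 genes fell by LPS in unshielded mice, the shielded changes of Casp1, Aim2 and Casp8 were -0.13, -0.052 and -0.25, and that of Casp8 in unshielded mice was -0.21. With the covariate 1 gene fell by LPS in shielded mice, 5 were lower by shielding after LPS and 1 for the difference. Leaving out single libraries gave 1 to 4 genes lower for the difference. With the replicate block 6 genes rose and 2 fell by LPS in shielded mice, and no call but that of Casp1 changed among the 10 genes; in the other comparisons, where same-numbered libraries did not all deviate together (correlations of -0.264 to 0.478), Nlrp3 after LPS by shielding lost its call (adjusted p = 0.0636), as did Gsdmd (0.107), while Gsdmd without LPS (0.0255) and Nlrc4 by LPS in unshielded mice (0.0216) gained one, and by shielding 8 list genes were lower after LPS and 7 without, against 13 and 4 with no block. The causes were not tested. At 1.86 CPM the lowest Nlrc4 value rests on 47 counts, so counting error limits Nlrc4 most among the 10 genes.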
